A study of Mus musculus with 21 samples.

Results

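The interferon regulatory factors are a family of transcription factors, and transcript levels of 8 of its genes were followed through 7 fractions of mouse bone marrow. The members were Irf1, Irf2, Irf3, Irf4, Irf5, Irf7, Irf8 and Irf9, chosen by gene symbol among 18217 symbols on the array, of which 14312 passed the filter on dim probes. All 8 members passed it. Each member was read from the brightest of its probes, and a level is the log2 spot signal less that array's 75th percentile, so that a level of 0 equals that percentile. Levels of different genes come from different probes and were not compared with each other. The cells were untreated and came from C57BL/6 mice, with 3 one-colour arrays for each fraction and 21 in all; age was not given in the sources used here. KLS cells (lin- ckit+ sca1+) are the multipotent fraction. On the erythroid side followed PreMegE (lin- ckit+ sca1+, CD150+, CD105-, FCGrI/II-), CFUe (the same gate with CD150-) and Ter119 (CD71+ Ter119+). On the myeloid side followed PreGM, for which the labels give the same gate as for CFUe, then GMP (lin- ckit+ sca1+, CD150-, FCGrI/II+) and Mac1Gr1 (Mac1+ Gr1+). The lineage panel held B220, CD3, CD4, CD8, CD41, Mac1, Gr1 and Ter119, and neither Ter119 nor Mac1Gr1 carries a lin- gate in its label. Nothing in the labels says that the 3 arrays of a fraction came from separate animals, so p values measure the spread between these samples, which may be technical.

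All members of this family share a DNA-binding domain that recognises GAAA repeats, as in the interferon-stimulated response element. IRF3 and IRF7 are latent factors that are phosphorylated after viral nucleic acid is sensed and then switch on type I interferon genes, and IRF5 acts beside them downstream of MyD88 on inflammatory cytokine genes. IRF9 joins STAT proteins in the complex ISGF3, which carries the interferon signal to its target genes. IRF1 is an activator that is itself induced by interferon gamma, and IRF2 competes with it for the same sites. IRF4 and IRF8 bind DNA weakly alone and work with ETS factors such as PU.1 (Spi1), BATF proteins and E proteins. In marrow, IRF8 is known for steering granulocyte and monocyte progenitors to the monocyte and dendritic cell side, and IRF4 for its part in B cells, plasma cells and dendritic cells.

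The promoter windows of the members, from 250 bases before to 50 bases after each annotated start (RefSeq, assembly GRCm38.p6), were searched on both strands for the elements through which the family and its inducers act. The letters searched were GAAA, NN and GAAA in a row for a response element core, GGAA, NN and GAAA in a row for the composite site of an ETS factor with IRF4 or IRF8, and TTCNNNGAA for a STAT site. All 8 members had a window, 11 windows in all, and 3 windows held a match. The windows of Irf1, Irf2 and Irf8 are shown because they carry these matches, which are in capitals.
Irf1 (chr11:53769764-53770063, plus strand): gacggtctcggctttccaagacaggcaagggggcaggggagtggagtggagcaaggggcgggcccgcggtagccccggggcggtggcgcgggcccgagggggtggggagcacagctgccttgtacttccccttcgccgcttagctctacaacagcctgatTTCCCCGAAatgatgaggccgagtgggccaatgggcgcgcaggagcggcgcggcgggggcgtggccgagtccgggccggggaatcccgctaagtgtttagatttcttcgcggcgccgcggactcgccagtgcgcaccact
Irf2 (chr8:46739495-46739794, plus strand): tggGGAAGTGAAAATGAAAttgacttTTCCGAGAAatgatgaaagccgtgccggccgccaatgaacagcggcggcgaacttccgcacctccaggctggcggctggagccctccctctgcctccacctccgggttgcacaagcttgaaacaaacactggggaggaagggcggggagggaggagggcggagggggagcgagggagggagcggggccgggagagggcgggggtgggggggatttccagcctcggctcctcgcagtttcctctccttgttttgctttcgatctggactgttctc
Irf8 (chr8:120736108-120736407, plus strand): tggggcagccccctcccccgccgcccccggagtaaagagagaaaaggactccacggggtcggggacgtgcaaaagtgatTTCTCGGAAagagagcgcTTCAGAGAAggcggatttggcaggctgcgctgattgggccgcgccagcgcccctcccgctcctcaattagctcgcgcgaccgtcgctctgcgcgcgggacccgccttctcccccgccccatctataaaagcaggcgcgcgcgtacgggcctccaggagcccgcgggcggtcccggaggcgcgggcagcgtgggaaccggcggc
Irf1 held 1 STAT match (TTCCCCGAA), which began 90 bases before the start. Irf8 held 2, TTCTCGGAA and TTCAGAGAA, beginning 171 and 153 bases before its start. In Irf2 a composite match (GGAAGTGAAA) overlapped a response element match (GAAAATGAAA), followed by a STAT match (TTCCGAGAA). Of 32851 promoter windows, 3.44% held the response element letters, 2.72% the composite letters and 8.3% the STAT letters. A match is a description of these letters and not a shown binding site.

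Before the results, 3 features of the arrays need stating. Between 56.2% and 77.4% of probes were well above background per array, and correlations within fractions (across probes, which are not independent) were 0.977 to 0.993. The 75th percentile of signal was lower in Ter119 and Mac1Gr1, at 196 to 400.8 units, than on every other array, at 503.5 to 1010. The 3rd arrays of CFUe and PreGM stood apart from the other arrays of their fractions. The Y-linked transcript Ddx3y was well above background on these 2 arrays and on all arrays of KLS, PreMegE and Ter119, and on none of the others, whereas Xist was high on the rest. CFUe replicate 3 also had a summed level of 12 granulocyte genes of 5.37, against 2.57 and 2.43 on the other CFUe arrays. The gene for Sca1, Ly6a, had a level of 2.57 ± 0.17 (SD, n = 3) in KLS and -3.14 ± 0.22 in PreMegE, and only 1 of 3 CFUe arrays read it above background, although the labels call all of these fractions sca1+.

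**Figure D1:**
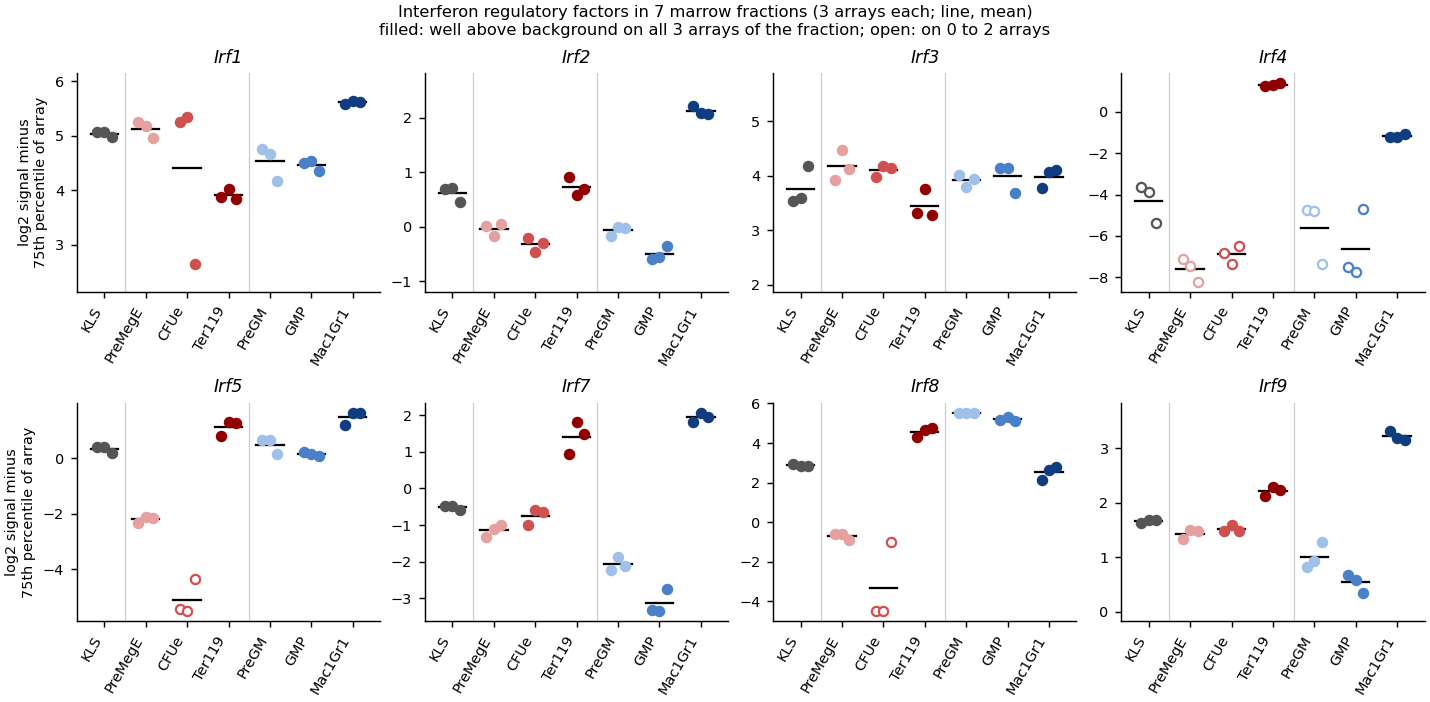
Level of each of the 8 interferon regulatory factors on every array (vertical axis, log2 signal minus the 75th percentile of the array; horizontal axis, the 7 fractions; points, arrays; lines, means of 3 arrays; each panel has its own vertical scale). Irf8 ran from a mean of -3.33 in CFUe to 5.52 in PreGM, Irf4 was filled, that is measured on all 3 arrays, only in Ter119 and Mac1Gr1, and Irf3 stayed between 3.44 and 4.17.

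Irf8 divided the erythroid from the myeloid progenitors. Its levels were 2.96, 2.82 and 2.82 in KLS, -0.61, -0.62 and -0.90 in PreMegE, -4.50, -4.48 and -1.0 in CFUe, and 4.30, 4.67 and 4.74 in Ter119. On the myeloid side they were 5.53, 5.51 and 5.51 in PreGM, 5.17, 5.31 and 5.11 in GMP and 2.15, 2.65 and 2.81 in Mac1Gr1. Every PreMegE array lay below every KLS array and every PreGM array above it, CFUe replicate 3 stood well above the other 2 CFUe arrays, and the Ter119 arrays were nearly as high as those of GMP. In PreMegE Irf8 was 11.9-fold lower than in KLS (log2 difference -3.57 ± 0.60 SE, adjusted p = 0.000207), and in PreGM 6.28-fold higher (2.65 ± 0.60, adjusted p = 0.00379). PreMegE therefore lay 74.8-fold below PreGM, its counterpart (-6.22 ± 0.60, adjusted p = 5.26e-07). A second fall came in CFUe (fitted difference -2.62 ± 0.60, adjusted p = 0.00142, and -1.61 with normexp), where 2 of 3 arrays were well above background. The fit did not tell GMP from PreGM (-0.32 ± 0.60, adjusted p = 0.758), although every GMP array lay below every PreGM array. Mac1Gr1 was 6.33-fold lower than GMP (-2.66 ± 0.60, adjusted p = 0.000653). In order of level the fractions ran PreGM, GMP, Ter119, KLS, Mac1Gr1, PreMegE and CFUe. PreGM and GMP, GMP and Ter119 (adjusted p = 0.348), and KLS and Mac1Gr1 (adjusted p = 0.625) were not told apart by the fit, although the arrays overlapped in none of these pairs. All fractions share the standard error, and it holds the wide spread of CFUe (SD 2.02, against 0.012 in PreGM, 0.11 in GMP and 0.34 in Mac1Gr1). These are bulk samples, in which fewer cells of a type and less RNA per cell cannot be told apart. A 2nd Irf8 probe gave the same call in all 11 comparisons made between fractions. With slide as a block the difference of PreMegE from KLS was -2.28 and was no longer called (adjusted p = 0.122). Without CFUe replicate 3 the difference of CFUe from PreMegE was -3.78 (adjusted p = 3.59e-11), and in a fit of those 2 fractions alone, with all arrays, it was not called (adjusted p = 0.0626).

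Irf4, the closest relative of Irf8 in function, was detected throughout only in Ter119 and Mac1Gr1. Its levels were 1.26, 1.31 and 1.38 in Ter119 and -1.19, -1.21 and -1.08 in Mac1Gr1, with little spread. KLS arrays read -3.64, -3.89 and -5.38 and PreGM arrays -4.74, -4.79 and -7.37, with 2 of 3 arrays well above background in each. GMP arrays read -7.51, -7.76 and -4.68, of which 1 was well above background, and no array of PreMegE or CFUe was. The Ter119 and Mac1Gr1 arrays overlapped with no other fraction and not with each other. Irf4 was at least 72.7-fold higher in Ter119 than in CFUe (fitted log2 difference 8.21 ± 0.74, adjusted p = 1.95e-08), where the bound sets the Ter119 mean against the lowest signal that counted as well above background on the CFUe arrays. With a normexp background correction that difference was 4.65 on the log2 scale, a smaller change than the bound. Ter119 also exceeded Mac1Gr1 by 5.56-fold (2.48 ± 0.74, adjusted p = 0.00714). Mac1Gr1 was higher than GMP (fitted difference 5.49 ± 0.74, adjusted p = 3.1e-06, and 2.85 with normexp). GMP was called lower than KLS (-2.35 ± 0.74, adjusted p = 0.0145), although GMP replicate 3 lay above KLS replicate 3. KLS was at least 2.33-fold above PreMegE and at least 1.48-fold above CFUe, with adjusted p of 0.00279 and 0.00567. Normexp, which pulls dim signals together, also ended the 3 calls of Irf4 against KLS, with PreMegE at -0.65, CFUe at -0.42 and GMP at -0.72. Slide as a block also ended those of PreMegE (-2.94, adjusted p = 0.086) and GMP (-2.24, adjusted p = 0.0675).

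Irf5, which couples MyD88 to inflammatory cytokine genes, fell along the early erythroid side and held on the myeloid side. Its levels were 0.40, 0.39 and 0.20 in KLS, -2.32, -2.11 and -2.17 in PreMegE and -5.43, -5.51 and -4.35 in CFUe, where 1 array was well above background. They were 0.64, 0.67 and 0.17 in PreGM, 0.24, 0.16 and 0.08 in GMP, 1.2, 1.64 and 1.63 in Mac1Gr1 and 0.79, 1.29 and 1.26 in Ter119. PreMegE and CFUe therefore lay below every array of the other 5 fractions. The fall was 5.78-fold from KLS to PreMegE (-2.53 ± 0.24, adjusted p = 4.81e-07) and continued from PreMegE to CFUe (fitted difference -2.90 ± 0.24, adjusted p = 4.52e-08). PreGM and KLS did not differ beyond the spread (0.16 ± 0.24, adjusted p = 0.687). Ter119 was above CFUe (fitted difference 6.21 ± 0.24, adjusted p = 4.9e-13). With normexp these 2 differences were -1.21 and 4.02. Mac1Gr1 was 2.52-fold above GMP (1.33 ± 0.24, adjusted p = 9.41e-05). In the top ranks Mac1Gr1 and Ter119 were not told apart (adjusted p = 0.18). With slide as a block the rise in Mac1Gr1 was 0.81 (adjusted p = 0.0361), below 2-fold.

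Irf7, the amplifier of type I interferon production, fell stepwise on the myeloid side before a steep rise. Its levels were -0.49, -0.47 and -0.58 in KLS, -2.23, -1.87 and -2.12 in PreGM, -3.31, -3.35 and -2.75 in GMP and 1.82, 2.07 and 1.96 in Mac1Gr1. These 4 groups of arrays did not overlap. PreMegE read -1.31, -1.11 and -1.01, CFUe -0.99, -0.58 and -0.66 and Ter119 0.95, 1.83 and 1.48, so that the erythroid progenitors stayed above both myeloid progenitor fractions. From KLS to PreGM the fall was 2.95-fold (-1.56 ± 0.20, adjusted p = 3.37e-05) and from PreGM to GMP 2.09-fold (-1.06 ± 0.20, adjusted p = 0.000816). The rise from GMP to Mac1Gr1 was 34.0-fold (5.09 ± 0.20, adjusted p = 5.18e-13) and that from CFUe to Ter119 4.47-fold (2.16 ± 0.20, adjusted p = 3.16e-08). CFUe was 5.26-fold higher than GMP (2.40 ± 0.20, adjusted p = 2.57e-08). The difference of GMP from PreGM is close to 2-fold, and quantile scaling (-0.89), normexp (-0.81), the deposited series table (-0.93) and slide as a block (-0.80, adjusted p = 0.086) each ended the call, and with spike-in scaling the difference was -0.047 (adjusted p = 0.894). The same scaling took Irf7 in Ter119 over CFUe to 0.78, below 2-fold, and in CFUe over GMP to 1.01.

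Irf3, the constitutive partner of Irf7, varied least on the percentile scale. Fraction means lay between 3.44 ± 0.27 in Ter119 and 4.17 ± 0.28 in PreMegE (SD, n = 3), and the arrays of Ter119 lay below all of those of PreMegE, CFUe, PreGM and Mac1Gr1, while every other pair of fractions overlapped. No comparison called it at 2-fold on that scale. Scaled to the spike-in RNAs it was called in 5, with -2.03 in Ter119 vs CFUe, -2.04 in Mac1Gr1 vs GMP, 1.09 in GMP vs PreGM, -1.27 in CFUe vs GMP, and -1.26 when Ter119 was set against Mac1Gr1. On the percentile scale Ter119 was 1.57-fold below CFUe (-0.66 ± 0.19, adjusted p = 0.00573) and 1.45-fold below Mac1Gr1 (-0.53 ± 0.19, adjusted p = 0.0229). Between neighbours in the order of the 7 means none differed beyond the spread. The span of its means, 0.73 on the log2 scale, was wider than that of only 2.25% of tested probes. For Irf4 and Irf8 that share was 98.5% each, for Irf5 95.0% and for Irf7 89.0%, and for Irf2, Irf9 and Irf1 it was 57.1%, 58.4% and 30.7%.

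Irf9, the DNA-binding subunit of ISGF3, and Irf2, the competitor of IRF1, both had their highest mean in Mac1Gr1 and their lowest in GMP, where Irf2 was not told apart from CFUe (adjusted p = 0.206). Irf9 levels were 1.62, 1.68 and 1.67 in KLS, 0.67, 0.58 and 0.35 in GMP, 3.31, 3.19 and 3.15 in Mac1Gr1 and 2.12, 2.29 and 2.24 in Ter119. Irf2 levels were 0.69, 0.70 and 0.45 in KLS, -0.60, -0.56 and -0.36 in GMP, 2.22, 2.08 and 2.06 in Mac1Gr1 and 0.91, 0.57 and 0.69 in Ter119. For both genes the GMP arrays lay below and the Mac1Gr1 arrays above all of those of KLS and Ter119. Irf9 was 6.42-fold higher in Mac1Gr1 than in GMP (2.68 ± 0.12, adjusted p = 1.87e-12). Irf2 was 6.18-fold higher in the same comparison (2.63 ± 0.12, adjusted p = 2.5e-12). Both were lower in GMP than in KLS, by 2.18-fold for each (-1.12 ± 0.12, adjusted p = 7.34e-07 for Irf9 and 7.91e-07 for Irf2). Means of PreMegE, CFUe and PreGM were 1.43, 1.52 and 1.0 for Irf9 and -0.04, -0.32 and -0.07 for Irf2. From CFUe to Ter119 Irf2 rose 2.07-fold (1.05 ± 0.12, adjusted p = 3.8e-07), a rise that was -0.33 when arrays were scaled to the spike-in RNAs. In Irf9 that step was 0.70 ± 0.12 (adjusted p = 4.21e-05), below 2-fold, and -0.68 (adjusted p = 0.0428) with that scaling. The spike-in scaling also ended the calls of Mac1Gr1 over GMP (0.60 for Irf2 and 0.65 for Irf9) and of GMP below KLS (-0.72 for each). A 2nd Irf9 probe, lowest in PreGM (-3.62) with GMP close to it (-3.60), kept the call of Mac1Gr1 over GMP (2.35) and called 2 comparisons that the brighter probe did not, PreGM lower than KLS (-1.03) and CFUe higher than GMP (1.08).

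Irf1, the activator induced by interferon gamma, was among the flatter members, and its values in CFUe rest on 1 array. The CFUe arrays read 5.24, 5.34 and 2.64, the lowest of them replicate 3. KLS arrays were at 5.06, 5.07 and 4.98, PreMegE at 5.25, 5.18 and 4.95, Ter119 at 3.87, 4.02 and 3.84, PreGM at 4.76, 4.67 and 4.18, GMP at 4.50, 4.54 and 4.36 and Mac1Gr1 at 5.58, 5.65 and 5.62. Mac1Gr1 was above and Ter119 below all arrays of the other fractions, apart from CFUe replicate 3, which was the lowest of all. Ter119 lay 3.26-fold below Mac1Gr1 (-1.71 ± 0.46, adjusted p = 0.00343). Mac1Gr1 was 2.22-fold above GMP (1.15 ± 0.46, adjusted p = 0.0307). That call did not survive leaving out any single array of either fraction and was not made by the 2nd Irf1 probe (0.74, adjusted p = 0.141). On both probes the arrays of Mac1Gr1 and GMP did not overlap. The standard error is shared by all fractions and holds the spread of CFUe (SD 1.53, and 1.44 on the 2nd probe), against SDs of 0.03 in Mac1Gr1 and 0.09 in GMP on the brighter probe. Ter119 against CFUe was -0.50 ± 0.46 (adjusted p = 0.329) with all arrays and -1.38 (adjusted p = 3.29e-07) without CFUe replicate 3. The 2nd Irf1 probe called Ter119 lower there with all arrays (-1.12 ± 0.45, adjusted p = 0.0306), although the arrays overlapped. Ddx3y was measured on every Ter119 array and on no Mac1Gr1 array, so sex-chromosome transcripts and fraction move together in that comparison. They do so in GMP against KLS as well, and in part in comparisons with CFUe or PreGM. A block for these transcripts, chosen after the data were seen and estimated from the CFUe and PreGM arrays alone, took the difference of Ter119 from Mac1Gr1 to -0.11 (adjusted p = 0.828) for Irf1 and from 2.03 to 0.29 (adjusted p = 0.733) for Irf8. CFUe replicate 3, on which that block partly rests, also had higher granulocyte, monocyte and B cell sums. PreGM replicate 3, on which it rests as well, had a median level of the granulocyte genes of -0.07, against -2.67 and -2.96 on the other PreGM arrays. The block therefore does not isolate sex.

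**Figure D2:**
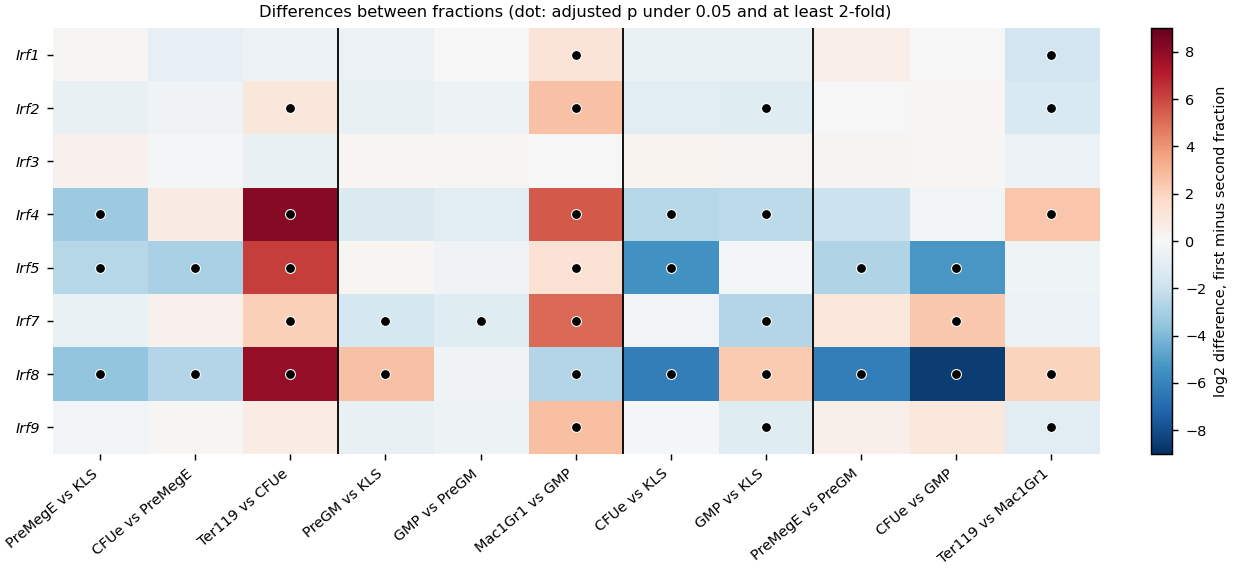
Log2 difference of each member (rows) in the 11 comparisons (columns; first minus second fraction; colour scale in log2 units), with a dot where adjusted p was under 0.05 and the change at least 2-fold. Mac1Gr1 vs GMP holds 7 dots, Ter119 vs CFUe, GMP vs KLS and Ter119 vs Mac1Gr1 hold 5 each, and Irf3 has none.

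A member was called where its adjusted p was under 0.05 and its change at least 2-fold, and the share of all 29527 tested probes called by the same rule is given beside each count. In PreMegE against KLS 3 of 8 members were lower and none higher (Irf4, Irf5 and Irf8), where 12.4% of probes were called, 3.55% higher and 8.86% lower. In CFUe against PreMegE 2 were lower (Irf5 and Irf8), beside 24.7% of probes, 9.96% higher and 14.7% lower. In Ter119 against CFUe 5 were higher (Irf2, Irf4, Irf5, Irf7 and Irf8) and none lower, beside 57.2%, of which 29.2% were higher and 28.0% lower. In PreGM against KLS Irf8 was higher and Irf7 lower, beside 8.63% (2.11% higher and 6.52% lower). In GMP against PreGM 1 member was lower (Irf7), beside 10.4% (4.01% higher and 6.36% lower). In Mac1Gr1 against GMP 6 were higher and 1 lower (Irf8), beside 56.7% (29.1% higher and 27.6% lower). Over the longer distances, CFUe against KLS called 3 members lower (Irf4, Irf5 and Irf8), beside 36.3% of probes (17.3% higher and 19.1% lower). GMP against KLS called Irf8 higher and Irf2, Irf4, Irf7 and Irf9 lower, beside 21.7% (8.0% higher and 13.7% lower). Between the lineages, PreMegE was lower than PreGM in Irf5 and Irf8, beside 12.0% of probes (5.81% higher and 6.23% lower). CFUe was lower than GMP in Irf5 and Irf8 and higher in Irf7, beside 26.3% (12.1% higher and 14.2% lower). Ter119 was higher than Mac1Gr1 in Irf4 and Irf8 and lower in Irf1, Irf2 and Irf9, beside 41.9% (22.0% higher and 19.9% lower). The F test over the 7 fractions passed for all 8 members, narrowly for Irf3 (adjusted p = 0.0332) and Irf1 (adjusted p = 0.035), as it did for 94.7% of probes. For Irf1 the F test also holds the wide spread of CFUe described above. The median change of the 8 members was -0.64 in PreMegE against KLS, 1.60 in Ter119 against CFUe and 1.98 in Mac1Gr1 against GMP, where the median of all tested probes was 0.13, 0.05 and 0.17. Scaled to the spike-in RNAs, the median of all probes moved to -1.33 in Ter119 against CFUe and -1.86 in Mac1Gr1 against GMP, and the rises of Irf1 and Irf5 in Mac1Gr1 turned to -0.88 (adjusted p = 0.144) and -0.70 (adjusted p = 0.0544). The comparisons share fractions and are not independent of each other.

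Whether the erythroid and the myeloid side changed differently was tested directly. At the first step that test is PreMegE against PreGM, given above. At the second step (CFUe vs PreMegE against GMP vs PreGM) 34.3% of probes differed at an adjusted p under 0.05, and 4 members did. Irf5 fell by 2.90 on the log2 scale on the erythroid and by 0.34 on the myeloid side (difference -2.56 ± 0.34, adjusted p = 2.15e-05). In Irf8 the difference was -2.30 ± 0.84 (adjusted p = 0.0439), for Irf7 1.46 ± 0.28 (adjusted p = 0.000719) and for Irf9 0.55 ± 0.17 (adjusted p = 0.0163). At the third step (Ter119 vs CFUe against Mac1Gr1 vs GMP) 55.0% of probes differed, and 7 members did. Irf8 moved in opposite directions, 7.89 in Ter119 and -2.66 in Mac1Gr1, a difference of 10.56 ± 0.84 (adjusted p = 2.2e-08). Irf5 rose more on the erythroid side (difference 4.88 ± 0.34, adjusted p = 5.11e-09), whereas Irf7, Irf9 and Irf2 rose more on the myeloid side (-2.93 ± 0.28, -1.98 ± 0.17 and -1.58 ± 0.17, adjusted p = 2.17e-07, 4.08e-08 and 5.97e-07). Irf4 (2.72 ± 1.04, adjusted p = 0.0359) and Irf1 (-1.65 ± 0.64, adjusted p = 0.0394) passed narrowly, and neither did with slide as a block (adjusted p = 0.061 and 0.0682). Irf3 did not pass (-0.65 ± 0.27, adjusted p = 0.0554). With the spike-in scaling the second-step difference of Irf7 was -0.069 and that of Irf9 -0.98, so the sign of both turns with the scaling. That scaling also ended the third-step differences of Irf2 (-0.92, adjusted p = 0.0678) and Irf1 (-0.99, adjusted p = 0.339). Quantile scaling ended that of Irf1 (-0.99, adjusted p = 0.196). At the second step it ended those of Irf8 (-1.89, adjusted p = 0.0724) and Irf9 (0.41, adjusted p = 0.0628).

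**Figure D3:**
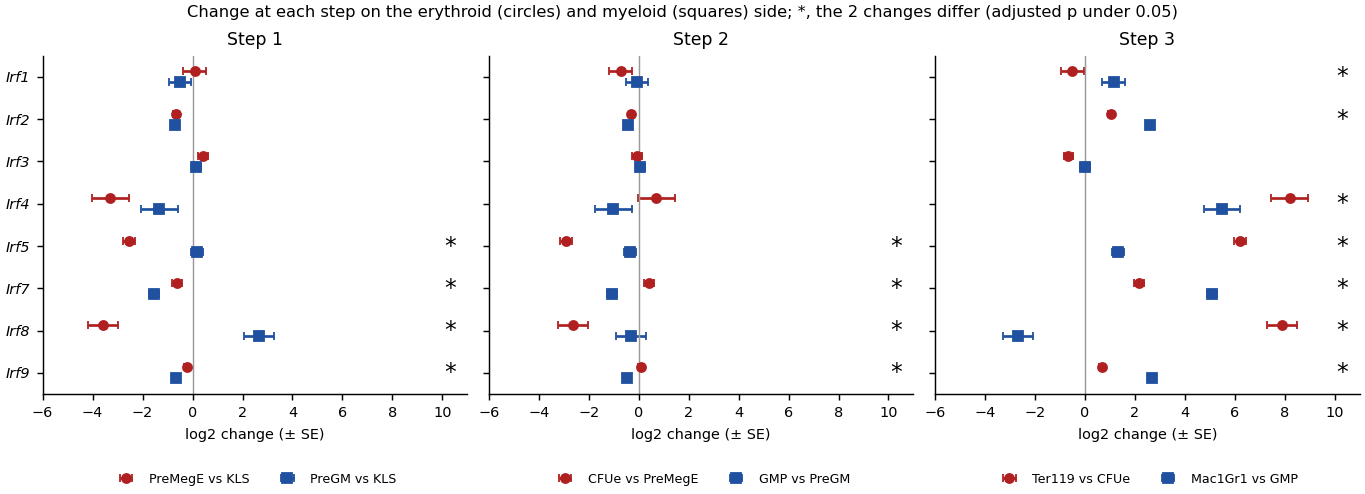
Log2 change of each member with its standard error (horizontal axis) at the 3 successive steps of the erythroid side (red circles) and the myeloid side (blue squares), with an asterisk where the change differed between the sides at an adjusted p under 0.05. Irf8 lies on opposite sides of 0 at the first and the third step.

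The partners of IRF4 and IRF8 on DNA followed part of this course. Spi1, which encodes PU.1, had mean levels of -0.76 in KLS, -2.19 in PreMegE, -6.04 in CFUe (1 of 3 arrays well above background) and 0.02 in Ter119, against 0.48, 0.71 and 2.60 in PreGM, GMP and Mac1Gr1. Spi1 was thus lower in CFUe than in PreMegE (-3.85 ± 0.36, adjusted p = 1.52e-07) and higher in PreGM than in KLS (1.24 ± 0.36, adjusted p = 0.0177), as Irf8 was. Unlike Irf8, it rose from GMP to Mac1Gr1 (1.89 ± 0.36, adjusted p = 0.000143). Values of this and the following gene lists are on the percentile scale. Spike-in scaling moves all probes of an array alike. It took the median of all probes to -1.86 in Mac1Gr1 against GMP and to -1.33 in Ter119 against CFUe. A rise no larger than that of Spi1 in Mac1Gr1 over GMP therefore depends on the scaling. Spib, the related ETS factor of B cells and plasmacytoid dendritic cells, rose by 9.20 ± 0.45 in Ter119 over CFUe (adjusted p = 7.16e-12) and in Mac1Gr1 over GMP by 5.35 ± 0.45 (adjusted p = 8.5e-09), the 2 steps at which Irf4 rose. Of the 6 partners tested (Spi1, Spib, Batf, Batf2, Batf3 and the E protein gene Tcf3), 3 were lower and none higher in PreMegE against KLS (8.86% of probes lower), and 4 were higher and none lower in Ter119 against CFUe (29.2% higher). Of the 3 corepressor genes Irf2bp1, Irf2bp2 and Irf2bpl, whose products bind IRF2, Irf2bpl fell from PreMegE to CFUe (-4.83 ± 0.40, adjusted p = 3.67e-08) and from PreGM to GMP (-2.08 ± 0.40, adjusted p = 0.000897).

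Of 8 genes listed as targets of IRF4 and IRF8, 7 had a probe and 6 were tested, Prdm1 not having passed the filter. In CFUe against GMP 5 of the 6 were lower and none higher (14.2% of probes lower), with a median change of -3.91. Among them were Ctss, a lysosomal protease of antigen presentation (-7.22 ± 0.58, adjusted p = 1.55e-08), and Cybb, a subunit of the phagocyte oxidase, which no CFUe array measured and which was at least 54.2-fold lower there (adjusted p = 2.85e-11). In Ter119 against CFUe 5 were higher, Klf4 among them (4.59 ± 0.22), and Nf1 was lower (-1.57 ± 0.16), beside 29.2% and 28.0% of probes. From GMP to Mac1Gr1, where Irf8 fell, 3 of the 6 rose, Cybb (3.76) and Ctss (2.41) among them. There 1 fell (Nf1 -1.45), and Klf4 and Cst3 were not called, beside 29.1% of probes higher and 27.6% lower.

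Of 11 genes for interferon receptors and the kinases, STATs and inhibitor that act with them, 8 were higher and none lower in Mac1Gr1 against GMP (29.1% and 27.6% of probes), with a median change of 1.90. Stat2, a partner of IRF9, rose by 1.90 ± 0.14 (adjusted p = 2.32e-09). This median and the rise of Stat2 depend on the scaling, as does the rise of Spi1 above. In Ter119 against CFUe 6 were higher and 2 lower (29.2% and 28.0% of probes), with a median of 1.01 and Stat2 at 0.89 ± 0.14 (adjusted p = 2.89e-05), below 2-fold. Both values are smaller than the move of all probes under spike-in scaling at that step. Of 12 ISGF3 target genes, 10 rose and 1 fell in Mac1Gr1 against GMP (29.1% and 27.6% of probes), among them Ifit3 (8.86 ± 0.27, measured on 1 of 3 GMP arrays) and Oasl2 (5.49 ± 0.11), while Bst2 fell (-2.00 ± 0.26). At the earlier steps 5 of 12 were lower and none higher in PreGM against KLS, as in PreMegE against KLS, and 4 were lower and none higher in GMP against PreGM (6.52%, 8.86% and 6.36% of probes lower). In Ter119 against CFUe 7 of 12 were higher and none lower (29.2% and 28.0% of probes), among them the antiviral gene Rsad2 (8.11 ± 0.29, adjusted p = 1.84e-13).

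Genes known as targets of IRF1 gave a mixed picture. Of 10 tested, 7 were lower and 1 higher in Ter119 against Mac1Gr1 (19.9% and 22.0% of probes), the comparison in which Irf1 itself was lower, with a median change of -1.27. The peptide transporter genes Tap1 and Tap2 were lower by -1.43 ± 0.28 and -1.69 ± 0.22, and Ciita, the class II transactivator, was higher (1.43 ± 0.32). In CFUe against PreMegE 5 of 10 were lower (14.7% of probes), including Gbp2 (-2.56 ± 0.16), Casp1 (-2.86 ± 0.25) and the immunoproteasome gene Psmb8 (-1.37 ± 0.20). Irf1 was not called in that comparison.

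Of 18 tested genes that sense nucleic acid or carry its signal to IRF3, IRF5 and IRF7, the early erythroid steps called 5 lower in PreMegE (8.86% of probes) and 6 lower and 1 higher in CFUe (14.7% and 9.96%). Tmem173, which encodes STING, fell from KLS to PreMegE (-4.38 ± 0.26, adjusted p = 1.4e-09) and Unc93b1, the chaperone of endosomal Toll-like receptors, fell at both steps (-2.39 ± 0.26 and -2.87 ± 0.26). Tlr7 was not well above background on any array of PreMegE or CFUe, and Tlr3 did not pass the filter. In Ter119 against CFUe 9 of 18 were higher and none lower (29.2% and 28.0% of probes). In Mac1Gr1 against GMP 7 of 18 were higher and 4 lower (29.1% and 27.6% of probes). The kinase genes that phosphorylate IRF3 and IRF7 parted there, with Tbk1 higher (1.60 ± 0.19, adjusted p = 8.07e-07) and Ikbke lower (-2.05 ± 0.17, adjusted p = 8.17e-09).

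**Figure D4:**
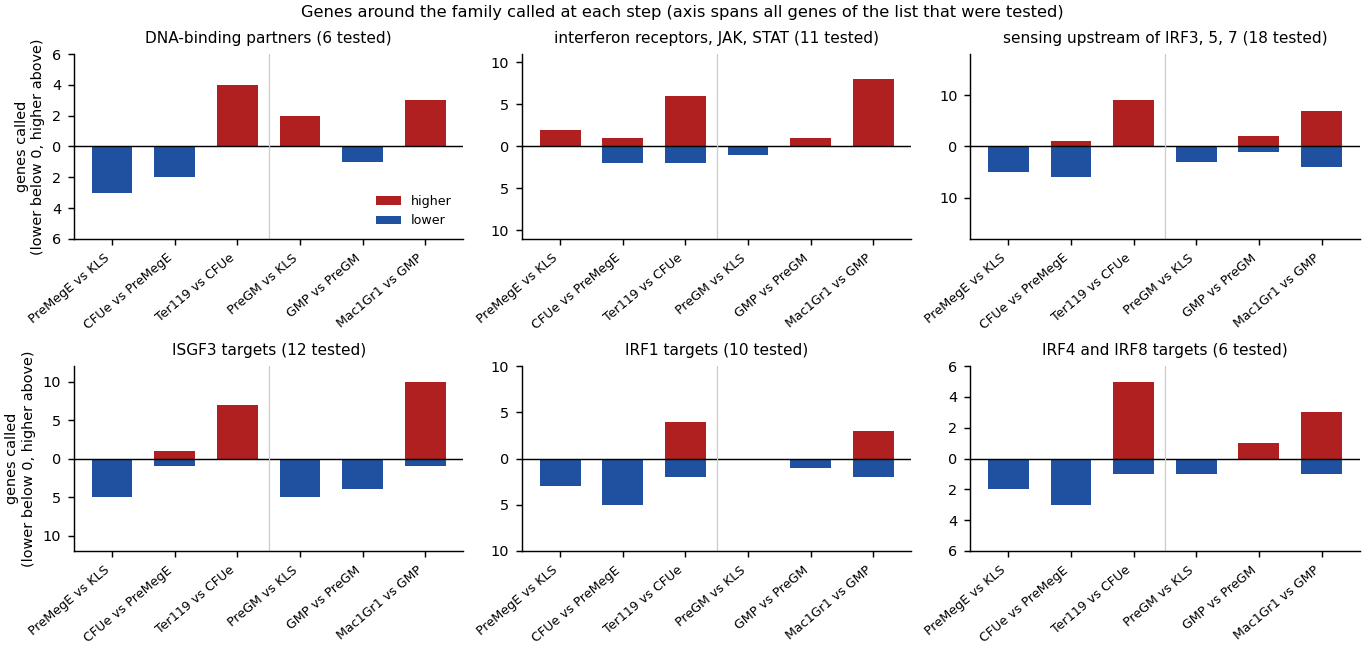
Number of genes called higher (red, above 0) or lower (blue, below 0) at the 3 erythroid and the 3 myeloid steps in 6 lists of genes around the family; each vertical axis spans the number tested. Of 12 ISGF3 targets, 5 were called lower in PreGM, 4 lower in GMP and 10 higher in Mac1Gr1.

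Markers of other cell types moved with several of these values, and their part in the results was not tested. In Ter119, beside the high Irf4, Irf5, Irf7 and Irf8, all 9 B cell genes, all 8 T and NK cell genes and all 12 granulocyte genes were well above background on every array. The summed level of the B cell list was 7.24 to 7.71 in Ter119, against 0.40 to 1.91 in CFUe and 5.03 to 5.79 in Mac1Gr1. The B cell gene Ms4a1 had a level of 4.07 ± 0.25 (SD, n = 3) in Ter119, and Siglech, a marker of plasmacytoid dendritic cells, was measured on all 3 Ter119 arrays (-0.99 ± 0.18) and on no array of KLS, PreMegE, CFUe, PreGM or GMP. In Mac1Gr1, beside the rise of Irf4 over GMP, all 9 B cell genes were higher than in GMP, where that list summed to 3.17 to 3.38. So were 6 of 9 dendritic cell genes (5.04 to 5.55 against 1.98 to 2.18) and 11 of 12 macrophage genes (4.32 to 5.13 against 3.04 to 3.24). The other macrophage gene, Vcam1, was lower. Of all probes, 29.1% were higher and 27.6% lower in Mac1Gr1 against GMP. The granulocyte list summed to 12.21 to 12.54 in Ter119, to 2.43 to 5.37 in CFUe and to 12.41 to 12.58 in Mac1Gr1. Of its 12 genes, 2 were higher and 2 lower in Ter119 than in Mac1Gr1 (22.0% and 19.9% of probes), and 8 were not called. The monocyte list summed to 8.17 to 8.37 in Ter119, -1.31 to 0.78 in CFUe and 6.34 to 6.81 in PreGM. It summed to 8.43 to 8.69 in GMP and 9.14 to 9.43 in Mac1Gr1. CFUe was lowest in this sum and in Irf8, with PreMegE next above it in both. Mac1Gr1 had the highest sum and PreGM the highest Irf8 mean. The sum is weighted to the brightest gene, Ly6c2 (9.22 in Mac1Gr1, 8.22 in GMP, 8.02 in Ter119 and 5.20 in PreGM). The median of the 8 monocyte genes was 2.78 in PreGM, 2.74 in GMP, 1.96 in Ter119 and 1.67 in Mac1Gr1. It was 0.05 in KLS, -2.83 in PreMegE and -4.29 in CFUe. That is the order of Irf8 except that KLS and Mac1Gr1 change places. Erythroid genes were well above background in Ter119 as well, all 9 on every array, with Alas2 at 9.92 ± 0.26. In KLS, beside Irf8 and Irf5 levels above those of PreMegE, the 12 macrophage genes were all well above background and summed to 5.22 to 6.68, against 0.45 to 1.26 in PreMegE and 0.98 to 1.26 in PreGM. In PreGM Irf5 was near the level of KLS and Irf8 above it. Which cells gave these signals in either fraction was not tested. CFUe replicate 3, the CFUe array highest in Irf8 and Irf5, had summed monocyte and B cell levels of 0.78 and 1.91, against -1.11 and -1.31, and 0.40 and 0.48, on the other 2 arrays.

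**Figure D5:**
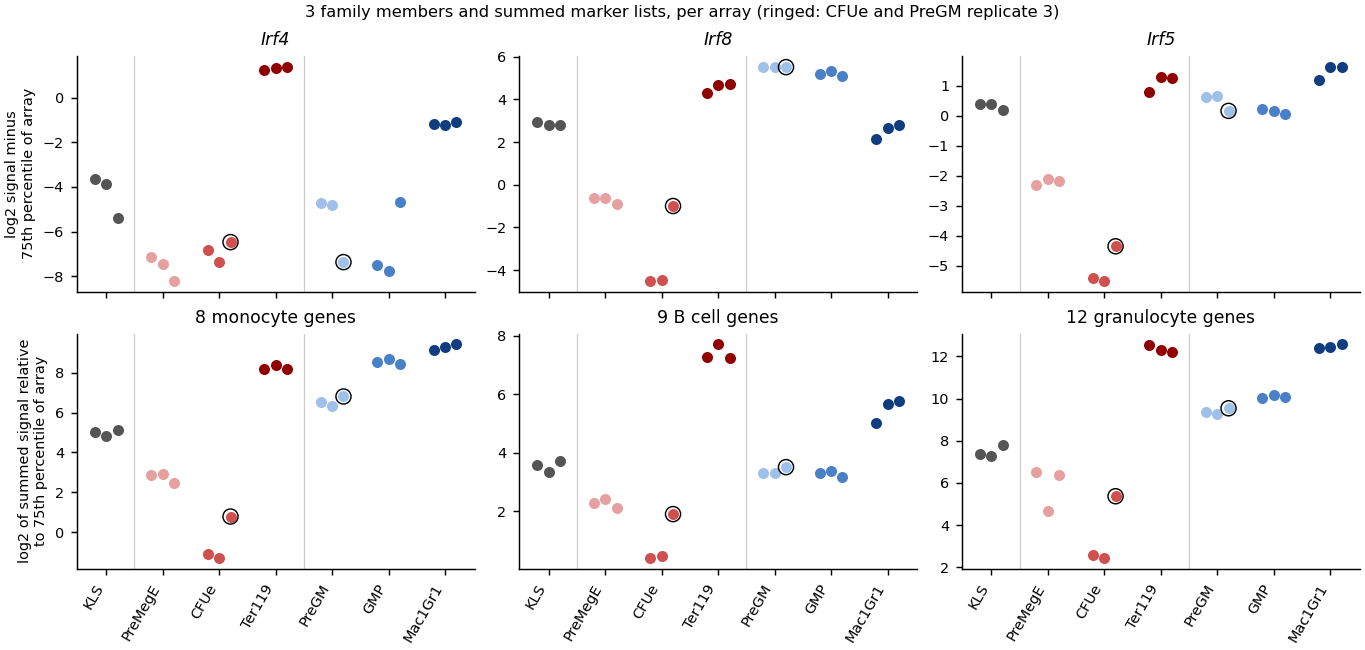
Levels of Irf4, Irf8 and Irf5 (upper row, log2 signal minus the 75th percentile of the array) above the summed signal of the monocyte, B cell and granulocyte marker lists (lower row, log2 relative to the same percentile) on all 21 arrays, with the 3rd arrays of CFUe and PreGM ringed. The Ter119 arrays are high in all panels, and the ringed CFUe array lies above the other CFUe arrays in all panels.

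The genes whose 7 fraction means were most like those of each member were taken from 8718 genes with a span of at least 2 on the log2 scale, as a description over 7 points from the same arrays. For Irf8 they were Ms4a6c (r = 0.992, also on the monocyte list), Ms4a6b (0.989) and Klrb1f (0.989). For Irf4 they were the sialyltransferase gene St6gal1 (0.998), Pxdc1 (0.997) and Ly6d (0.995), a surface antigen of early B cells. Irf5 was nearest to Spaca9 (0.994), Lbh (0.993) and Trps1 (0.988), and Irf7 to Ltbp4 (0.986), Cfhr2 (0.983) and Plxna4 (0.976). Irf2 was nearest to Ly96 (0.994), the co-receptor of Tlr4, with Plp2 (0.992) and Creg2 (0.988), and Irf9 to the glucose transporter gene Slc2a3 (0.994), Serpinb6d (0.994) and Helz2 (0.982). The nearest genes were less close for Irf1, with H2-Bl at 0.979, 4930526I15Rik at 0.929 and Mvp at 0.916, and for Irf3, with Cers2 at 0.968 and Pex5 and Acyp1 at 0.936 each.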

How the data were processed

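Total RNA of 7 sorted marrow fractions was labelled with Cy3 and hybridised to 21 one-colour Agilent whole mouse genome arrays. The deposited scanner files hold spot intensity, which the authors extracted with Agilent Feature Extraction 10.7.1.1 (background subtracted). The deposited series table holds log2 values of the same arrays (rank correlation at least 0.9998), and served as an alternative. Control spots and outlier flags (80 to 283 per array) were left out of 43379 spots, and spots of 1 probe were averaged. Values were log2 intensity minus the 75th percentile of each array. A probe was tested if it was well above background on all 3 arrays of a fraction (29527 of 41174 probes). RefSeq accessions gave symbols to 26690 probes. One limma 3.58.1 fit (R 4.3.3) over all arrays, with fraction means and no block, gave differences and standard errors (14 residual degrees of freedom). Benjamini-Hochberg adjustment ran over all tested probes within each comparison. A call needed an adjusted p under 0.05 and a 2-fold change. Summed marker levels are the log2 of summed scaled signals. The fit was tested on simulated data. The number of arrays limits the precision. The members and gene lists were chosen with earlier results of these data known. Named genes are the 8 members, the listed genes and the 3 genes most like each member. Alternatives covered scaling, background correction, the filter, blocks for slide (9 slides) and replicate number, the call rule, the probe and left-out arrays. Figures were drawn with matplotlib 3.10.9. Some single genes of these lists are not reported here.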

Additional observations from a re-analysis of the deposited data

Results flagged for a closer look

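Differences between the erythroid and myeloid sides at the same step passed the test (limma, adjusted p under 0.05) for 7 members, and are listed as erythroid minus myeloid log2 change. At the second step they were -2.56 for Irf5, 1.46 for Irf7, -2.30 for Irf8 and 0.55 for Irf9. At the third step they were -1.65 for Irf1, -1.58 for Irf2, 2.72 for Irf4, 4.88 for Irf5, -2.93 for Irf7, 10.56 for Irf8 and -1.98 for Irf9. Without CFUe replicate 3 the difference of Irf8 was -3.46 at the second step (adjusted p = 7.79e-09) and 11.72 at the third. Leaving out some single arrays ended the calls of Irf8 at the second step (highest adjusted p = 0.125) and of Irf1 and Irf4 at the third (0.117 and 0.0983), and slide as a block ended those of Irf8 and Irf9 at the second step (0.0659 and 0.0824). Spike-in scaling ended those of Irf1 and Irf2 at the third step. Quantile scaling ended that of Irf1 at the third and those of Irf8 and Irf9 at the second.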

How the results depend on the processing

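Scaling to 7 spike-in RNAs turned Irf2 in Ter119 vs CFUe to -0.33, Irf1 and Irf5 in Mac1Gr1 vs GMP to -0.88 and -0.70, and Irf2 and Irf3 in CFUe vs GMP to -1.20 and -1.27, and it turned Irf9 in Ter119 vs CFUe, below 2-fold, to -0.68. It turned the second-step lineage differences of Irf2, Irf7 and Irf9 to -1.39, -0.069 and -0.98. Members called under it numbered 5 in PreMegE vs KLS, 5 in PreGM vs KLS, 4 in Mac1Gr1 vs GMP, 7 in CFUe vs KLS, 3 in GMP vs KLS, 8 in Ter119 vs Mac1Gr1 and 7 in CFUe vs GMP. Probes called rose from 2549 to 5602 in PreGM vs KLS, 3061 to 14525 in GMP vs PreGM and 7766 to 17715 in CFUe vs GMP. The cause was not tested. Normexp took Irf4 in Ter119 vs CFUe from 8.21 to 4.65. The count of GMP vs PreGM was 0 with quantile scaling, normexp, slide as a block and the series table. Slide as a block left 1 in PreMegE vs KLS. Without the minimum fold the counts were 5 in PreMegE vs KLS, 4 in PreGM vs KLS, 3 in GMP vs PreGM and 4 in PreMegE vs PreGM. A fit of only the 2 fractions left 1 in CFUe vs PreMegE, and the sex-chromosome block, chosen after seeing the data, left 3 in Ter119 vs Mac1Gr1. Leaving out the 3rd arrays of CFUe and PreGM turned the second-step difference of Irf1 to 0.41.

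Leaving out 1 array at a time gave counts of 0 to 2 in GMP vs PreGM, the call of Irf7 being lost without PreGM replicate 2, GMP replicate 1 or GMP replicate 2, and of 4 to 6 in Ter119 vs CFUe. The counts were 6 throughout in Mac1Gr1 vs GMP, against 7 with all arrays, 3 throughout in PreMegE vs KLS and 2 throughout in PreGM vs KLS. With a replicate block the counts were 3, 2, 5, 2, 1, 7, 3, 5, 2, 3 and 5 in the 11 comparisons, as without it, and it changed no call. Arrays with the same number did not deviate together (median r 0.003 over 63 pairs, 7 of 21 arrays closest to their own number), so the numbers were not taken as a pairing. Slides that hold both fractions of a comparison gave 7 pairs in 6 of the 11 comparisons, without PreMegE vs KLS or Mac1Gr1 vs GMP. There 20 of 20 called values had the same sign as in the fit. The same arrays entered that fit, so this is no separate support. Irf4 and, in CFUe, Irf5 are limited by signal close to background.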
